A study of Mus musculus with 17 samples.

Results

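A set of 9 genes was followed in periprostatic fat of mice: Mertk, Axl, Gas6, Timd4, Cd163, Lyve1, Mrc1, Stab1 and Folr2, which encode receptors of resident tissue macrophages or receptors and a ligand that help such cells take up dead cells. They are a list fixed by gene name, drawn up with earlier results of these data known, and all 9 were among the 22180 genes measured. Each was read by the only probe set that carried its symbol. Total RNA of the fat depot around the prostate was hybridised to Affymetrix Mouse Gene 2.0 ST arrays, 1 array for each of 17 male C57BL/6J mice. The restricted group (HFD_CR, n = 5) had unlimited diet with 60 kcal% fat for 12 weeks and then, for 7 weeks, a daily ration of 70% of what the unrestricted high-fat mice ate, a 30% restriction. The high-fat group (HFD, n = 6) had the diet with 60 kcal% fat without limit for all of that time. The low-fat group (LFD, n = 6) had unlimited diet with 10 kcal% fat for the same time. Every group started its diet at 6 weeks of age and was killed at 25 weeks. The restricted mice stayed on the high-fat diet, so HFD_CR and LFD mice differed in diet as well as in intake. The 3 groups were compared pairwise, so each comparison shares a group with both others. Whole tissue was measured, so fewer cells of a type and less RNA per cell cannot be told apart.

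Values are log2 signals of the array, and a level of 1 gene cannot be set against that of another. Precision is limited by having 17 arrays. Array medians ran from 7.03 to 7.15, and all 9 genes were above the median on all 17 arrays. Adipocyte genes, 8 of which were measured, had mean signals of 12.55 to 12.69 in HFD_CR mice, 12.29 to 12.45 in HFD mice and 12.54 to 12.70 in LFD mice, high on every array, as the fat label gives. Transcripts of skeletal muscle or of prostate and accessory glands were high on 4 arrays, with a mean more than 1 above the median array. The mean of the skeletal muscle genes lay above the median array by 1.90 in HFD_CR mouse 2, 3.07 in LFD mouse 2 and 1.90 in LFD mouse 3. The mean of the prostate and accessory gland genes did so by 1.26 in HFD mouse 3 and 2.08 in LFD mouse 3. HFD_CR mouse 1, where male germ cell genes lay 1.95 above the median array, was not counted among the 4 arrays with other tissue. Without these 4 arrays the same number of the 9 genes was called in HFD against LFD (6) and in HFD_CR against HFD (3), and 3 in place of 4 were called in HFD_CR against LFD. Of all 22180 genes 5556, 3847 and 1685 were then called in turn, against 6165, 4213 and 2015 with all arrays.

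Macrophages find a dying cell by the phosphatidylserine that it turns outward. The receptor tyrosine kinases MERTK and AXL reach it through a bridging protein, GAS6 (protein S serves MERTK too), whereas TIM-4, the product of Timd4, binds the lipid itself and stabilin-1, the product of Stab1, is a scavenger receptor that can also bind it. CD163 takes up haemoglobin bound to haptoglobin, the mannose receptor (Mrc1) takes up glycoproteins, LYVE-1 binds hyaluronan and folate receptor beta (Folr2) binds folate, and these are used as markers of macrophages that live along vessels in adipose and other tissues. In obese fat, macrophages gather around dying adipocytes and take up their lipid. Axl and Gas6 are also made by stromal cells, and Lyve1 also by lymphatic endothelium.

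The high-fat diet went with higher signals of 5 of the 9 genes and a lower signal of 1. Folr2, Mrc1, Stab1, Axl and Gas6 rose in HFD against LFD mice, and Timd4 fell. The signals of all 5 genes that rose did not overlap between the groups. At an adjusted p under 0.05, 16.5% of all 22180 genes rose and 11.3% fell in this comparison, and 14.3% did not overlap between the groups. Mertk, Cd163 and Lyve1 did not pass the test. The median difference over the 9 genes was 0.19, against -0.003 over all genes.

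Restriction of the high-fat diet went with a higher signal of 1 of the 9 genes, Mertk, and lower signals of Mrc1 and Folr2. Mertk and Mrc1 did not overlap between HFD_CR and HFD mice. Over all genes 7.69% rose and 11.3% fell between these groups, and 13.7% did not overlap. The other 6 genes did not pass the test. In HFD_CR against LFD mice Stab1, Mertk, Axl and Gas6 rose and none fell, where 5.8% of all genes were higher and 3.28% lower. None of the 9 genes was free of overlap in this comparison, against 6.67% of all genes. Adjusted p values are from limma with Benjamini-Hochberg correction across all 22180 genes of a comparison, and differences are in log2 units ± SE.

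**Figure D1:**
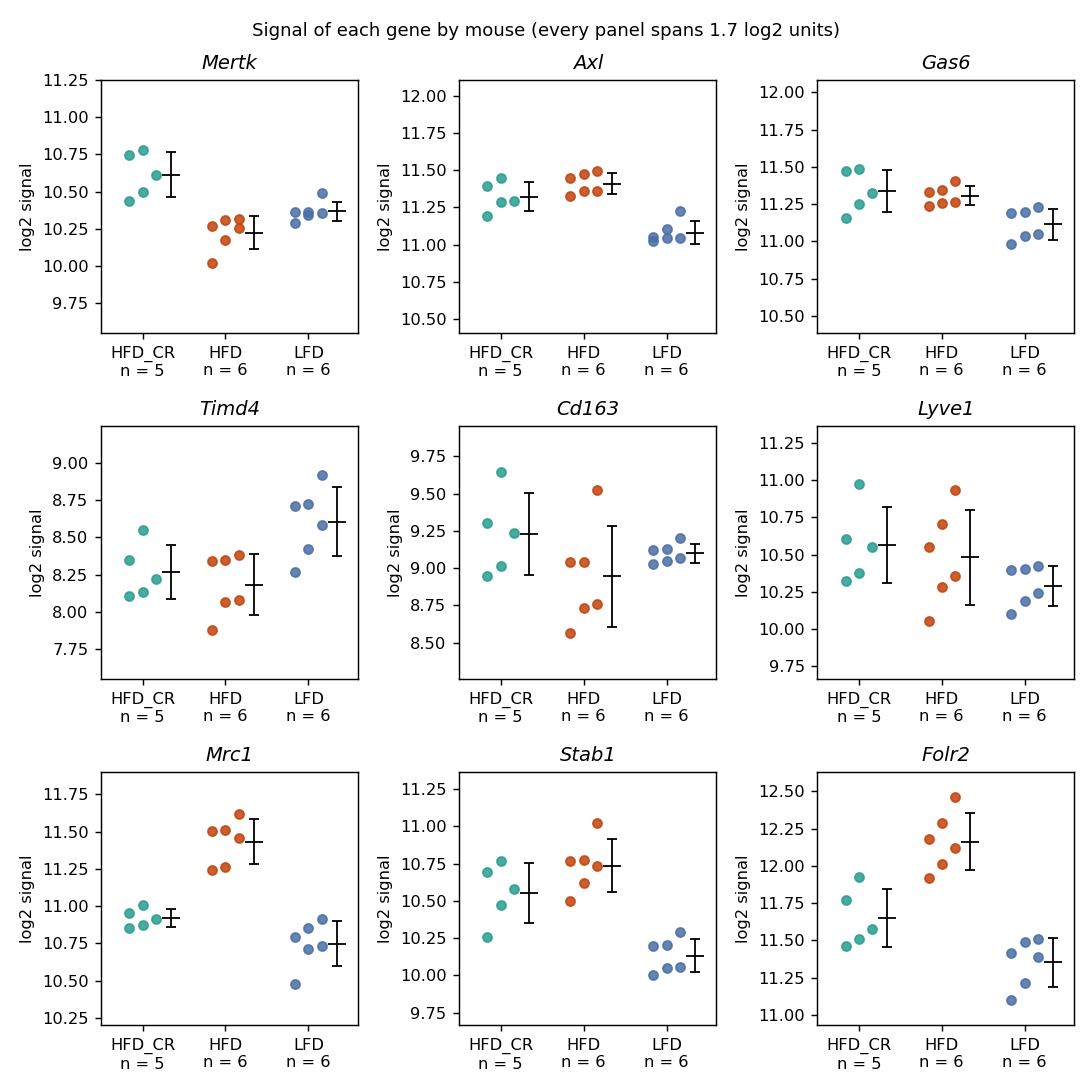
Log2 signal of the 9 genes in each mouse (points), by group, with the group mean and SD beside them, every panel spanning the same number of log2 units. Mrc1 was highest in HFD mice (11.24 to 11.62) and Mertk was highest in HFD_CR mice (10.44 to 10.78).

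In HFD against LFD mice the receptors for folate, glycoproteins and modified ligands showed the largest differences of the 9 genes. Mrc1 (probe set 17367102), the mannose receptor, measured 10.96, 10.92, 11.01, 10.87 and 10.85 in HFD_CR mice. Its lowest, median and highest signals were 11.24, 11.48 and 11.62 in HFD mice and 10.48, 10.76 and 10.91 in LFD mice. The HFD mice thus lay above every mouse of both other groups. Mrc1 rose by 0.69 ± 0.07 in HFD against LFD mice, a 1.61-fold difference (adjusted p = 1.32e-06). It fell by 0.51 ± 0.08 in HFD_CR against HFD mice, to 0.701 of the HFD level (adjusted p = 0.000132). HFD_CR and LFD mice overlapped and differed by 0.17 ± 0.08 (adjusted p = 0.194, 95% interval 0.01 to 0.34).

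Folr2 (probe set 17493949), which encodes folate receptor beta of macrophages, measured 11.77, 11.57, 11.93, 11.51 and 11.46 in HFD_CR mice. Its lowest, median and highest signals were 11.92, 12.15 and 12.46 in HFD mice and 11.10, 11.40 and 11.51 in LFD mice. All HFD mice lay above all LFD mice, while HFD_CR mouse 3 reached the lowest HFD mouse. Folr2 rose by 0.81 ± 0.10 in HFD against LFD mice, 1.75-fold and the largest difference among the 9 genes (adjusted p = 5.45e-06). It fell by 0.51 ± 0.10 in HFD_CR against HFD mice, 0.7-fold (adjusted p = 0.00164). It differed by 0.30 ± 0.10 in HFD_CR against LFD mice (adjusted p = 0.0861, 95% interval 0.08 to 0.52).

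Stab1 (probe set 17304523), the scavenger receptor stabilin-1, measured 10.58, 10.26, 10.47, 10.77 and 10.69 in HFD_CR mice. Its lowest, median and highest signals were 10.50, 10.75 and 11.02 in HFD mice and 10.00, 10.13 and 10.29 in LFD mice. All HFD mice lay above all LFD mice, and 4 of 5 HFD_CR mice did, HFD_CR mouse 2 being the exception. Stab1 rose by 0.60 ± 0.09 in HFD against LFD mice, 1.52-fold (adjusted p = 4.72e-05). It also rose in HFD_CR against LFD mice, by 0.42 ± 0.09 or 1.34-fold (adjusted p = 0.0076). Between HFD_CR and HFD mice the difference was -0.18 ± 0.09, with a 95% interval of -0.38 to 0.02 (adjusted p = 0.21). The order of the means was HFD, HFD_CR, LFD for Mrc1, Folr2 and Stab1, and the neighbours that did not differ beyond the test were HFD_CR and LFD for Mrc1 and Folr2, and HFD and HFD_CR for Stab1.

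Across mice, Mrc1 and Folr2 deviated from their group means together. Over 17 mice Pearson's r was 0.816 and Spearman's rho 0.833 (permutation p = 3e-05 and 0.00017, shuffled within groups, adjusted p = 0.0031 and 0.0186). Without the 2 mice farthest from the median of Folr2, r was 0.736. This was 1 of 207 relations computed, between pairs of the 9 genes and between each gene and 19 marker lists. By Pearson's r it was 1 of 2 that passed after adjustment. By rho, Axl with the genes of fibroblasts and adipose progenitors passed as well (adjusted permutation p = 0.0386). The 36 pairs of the 9 genes had r from -0.526, for Timd4 and Stab1, to 0.816, with a median of 0.162, and 24 were above 0. The next pairs in size were Cd163 with Lyve1 (r = 0.766) and Axl with Folr2 (r = 0.765), whose adjusted permutation p values were 0.126 and 0.0883. Without the 2 mice farthest from the median of Lyve1 or of Folr2, r was 0.483 and 0.766 in turn.

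The bases before the transcription starts of Mrc1 and Folr2, which moved together, are shown, with those of Mertk and Timd4, which moved in other ways. Each is the 250 bases before the first listed start, 5′ to 3′ on the strand of the gene, from RefSeq on GRCm38.p6. Capitals mark GGAAGT or its reverse complement ACTTCC, a core sequence bound by PU.1 and other ETS factors of macrophages.
Mrc1 (chr2:14229164-14229413, plus strand): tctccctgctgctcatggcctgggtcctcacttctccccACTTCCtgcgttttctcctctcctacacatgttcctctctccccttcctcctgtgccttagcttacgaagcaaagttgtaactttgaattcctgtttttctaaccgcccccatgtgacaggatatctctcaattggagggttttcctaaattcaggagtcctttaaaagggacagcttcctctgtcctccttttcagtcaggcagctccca
Folr2 (chr7:101857191-101857440, minus strand): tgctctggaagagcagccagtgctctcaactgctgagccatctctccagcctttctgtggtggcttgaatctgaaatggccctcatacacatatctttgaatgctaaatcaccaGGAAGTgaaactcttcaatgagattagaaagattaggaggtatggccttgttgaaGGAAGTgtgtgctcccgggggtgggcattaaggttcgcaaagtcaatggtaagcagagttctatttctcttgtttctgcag
Mertk (chr2:128698665-128698914, plus strand): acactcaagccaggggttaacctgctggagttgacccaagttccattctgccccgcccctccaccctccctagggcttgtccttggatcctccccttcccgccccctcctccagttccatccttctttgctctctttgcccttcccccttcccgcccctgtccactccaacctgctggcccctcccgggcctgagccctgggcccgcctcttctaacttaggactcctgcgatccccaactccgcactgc
Timd4 (chr11:46810549-46810798, plus strand): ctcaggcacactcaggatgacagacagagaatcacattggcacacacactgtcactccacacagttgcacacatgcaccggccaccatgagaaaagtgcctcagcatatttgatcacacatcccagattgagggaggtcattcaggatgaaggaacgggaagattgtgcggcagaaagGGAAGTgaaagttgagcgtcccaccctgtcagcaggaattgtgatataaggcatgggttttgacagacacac
The match lay 211 bases before the start in Mrc1, 136 and 81 bases before it in Folr2 and 72 bases before it in Timd4, and the Mertk window held none. Of 32851 such windows, 19.7% held this motif on either strand. Windows were found for 8 of the 9 genes, Folr2 having a pair, and 3 of those 9 windows held the motif. The windows of Stab1, Axl and Gas6, which also rose in HFD against LFD mice, held none. A link between the motif and the signals was not tested. The MAF half-site TGCTGA (or TCAGCA) was in 16.1% of all windows and in 4 of the 9, those of Timd4, Stab1 and both of Folr2. The nuclear receptor half-site AGGTCA (or TGACCT) was in 14.0% of all windows and in 1 of the 9, that of Timd4. A match describes the letters of a window only, and binding was not measured.

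Of the receptor kinases and their ligand, Mertk was highest in HFD_CR mice, and Axl and Gas6 were lowest in LFD mice. Mertk (probe set 17375997), the receptor kinase on which macrophages rely for uptake of dead cells, measured 10.44, 10.50, 10.78, 10.61 and 10.75 in HFD_CR mice. The lowest, median and highest signals were 10.02, 10.26 and 10.31 in HFD mice and 10.29, 10.36 and 10.49 in LFD mice. Every HFD_CR mouse lay above every HFD mouse, while the other pairs of groups overlapped. Mertk rose by 0.39 ± 0.07 in HFD_CR against HFD mice, 1.31-fold (adjusted p = 0.000434). It also rose in HFD_CR against LFD mice, by 0.25 ± 0.07 or 1.19-fold (adjusted p = 0.0255), a call that was lost without HFD_CR mouse 3, 4 or 5 or LFD mouse 4 (adjusted p = 0.0809, 0.0529, 0.0757 and 0.0506 in turn) and without the 4 arrays with other tissue (0.0731). In HFD against LFD mice it differed by -0.14 ± 0.06 (adjusted p = 0.113, 95% interval -0.28 to -0.01). After quantile normalisation was applied again this difference passed, at -0.19 (adjusted p = 0.0198). The order of the means was HFD_CR, LFD, HFD, and LFD and HFD were the neighbours that did not differ beyond the test.

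Axl (probe set 17488032), the other receptor kinase, measured 11.39, 11.29, 11.45, 11.28 and 11.19 in HFD_CR mice. The lowest, median and highest signals were 11.32, 11.41 and 11.49 in HFD mice and 11.02, 11.04 and 11.22 in LFD mice. HFD mice lay above all LFD mice, and of the HFD_CR mice only mouse 5 fell within the LFD range. Axl rose by 0.33 ± 0.05 in HFD against LFD mice, 1.26-fold (adjusted p = 7.31e-05), and by 0.24 ± 0.05 in HFD_CR against LFD mice, 1.18-fold (adjusted p = 0.00723). HFD_CR and HFD mice differed by -0.09 ± 0.05 (adjusted p = 0.306, 95% interval -0.20 to 0.02). Genes of fibroblasts and adipose progenitors, 9 of which were measured, had mean signals of 11.33 to 11.66 in HFD_CR mice, 11.70 to 11.88 in HFD mice and 11.38 to 11.56 in LFD mice. Within groups Axl had r = 0.702 with this mean over 17 mice and rho = 0.789 (adjusted permutation p = 0.126 and 0.0386). Without the 2 mice farthest from the median of this mean, r was 0.584. The part of fibroblasts and adipose progenitors in the Axl difference was not tested.

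Gas6 (probe set 17507605), the ligand of both kinases, measured 11.47, 11.25, 11.48, 11.33 and 11.16 in HFD_CR mice. The lowest, median and highest signals were 11.24, 11.30 and 11.40 in HFD mice and 10.99, 11.12 and 11.23 in LFD mice. The lowest HFD mouse lay just above the highest LFD mouse, and HFD_CR mice covered the whole HFD range. Gas6 rose by 0.19 ± 0.06 in HFD against LFD mice, 1.14-fold (adjusted p = 0.0254), and by 0.22 ± 0.06 in HFD_CR against LFD mice, 1.17-fold (adjusted p = 0.0352). HFD_CR and HFD mice differed by 0.03 ± 0.06 (adjusted p = 0.808, 95% interval -0.10 to 0.17). The first call was lost without HFD mouse 4 or LFD mouse 1, 4 or 5 (adjusted p = 0.0585, 0.0615, 0.0555 and 0.0566 in turn). The second was lost without HFD_CR mouse 1, 3 or 4 or LFD mouse 1, 4 or 5 (adjusted p = 0.106, 0.104, 0.0664, 0.075, 0.0747 and 0.0726 in turn).

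Gas6 followed the mesothelial genes of a sample, which mark the lining of the abdominal cavity. Mesothelial genes, 8 of 8 measured, had mean signals of 9.04 to 9.91 in HFD_CR mice, 8.80 to 9.43 in HFD mice and 8.99 to 10.08 in LFD mice. Upk1b, which is among them, also stands in the list of urothelium. The highest mean was that of LFD mouse 3, where prostate and accessory gland genes lay 2.08 above the median array. Of these genes 0 rose and 1 fell in HFD against LFD mice, 3 rose in HFD_CR against HFD mice and none passed in HFD_CR against LFD mice. Deviations of Gas6 and of this mean from their group means had r = 0.876 and rho = 0.846 over 17 mice (permutation p = 3e-05 and 0.00018, adjusted p = 0.0031 and 0.0186), and r = 0.861 without the 2 mice farthest from the median of the mesothelial mean. With the mesothelial mean as a covariate, an adjustment added after the data had been seen, Gas6 differed by 0.28 in HFD against LFD mice (adjusted p = 0.000139), by 0.17 in HFD_CR against LFD mice (adjusted p = 0.0146) and by -0.10 in HFD_CR against HFD mice (adjusted p = 0.207). The part of mesothelial cells in the Gas6 differences was not tested.

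**Figure D2:**
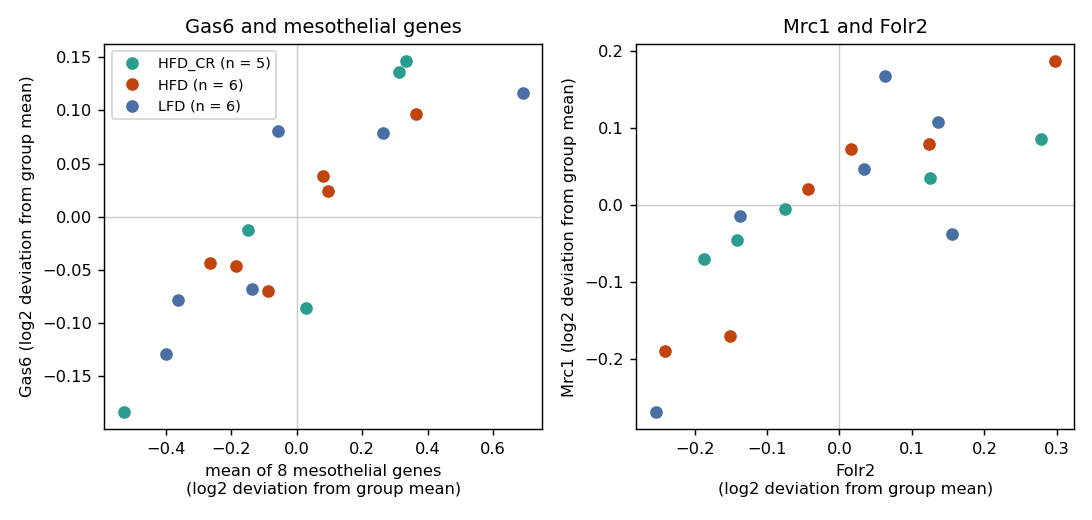
Deviation from the group mean, in log2 units, of Gas6 against the mean of 8 mesothelial genes (left) and of Mrc1 against Folr2 (right), with 1 point per mouse coloured by group. Points of all 3 groups rise from the lower left to the upper right in both panels (r = 0.876 and 0.816 over 17 mice).

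Timd4 was the only one of the 9 genes that fell in HFD against LFD mice. Timd4 (probe set 17248860), which encodes the phosphatidylserine receptor TIM-4, measured 8.35, 8.55, 8.13, 8.10 and 8.22 in HFD_CR mice. Signals ran from lowest over median to highest at 7.88, 8.21 and 8.38 in HFD mice and 8.27, 8.65 and 8.92 in LFD mice. HFD and LFD mice overlapped, as did HFD_CR and LFD mice. Timd4 fell by 0.42 ± 0.11 in HFD against LFD mice, to 0.746 of the LFD level (adjusted p = 0.00745). The difference between HFD_CR and LFD mice was -0.33 ± 0.12 (adjusted p = 0.0864), which passed without HFD_CR mouse 2 (adjusted p = 0.0448) or LFD mouse 6 (0.0347). HFD_CR and HFD mice differed by 0.09 ± 0.12 (adjusted p = 0.695, 95% interval -0.16 to 0.33). The means of Timd4 ran LFD, HFD_CR, HFD from high to low, those of Axl HFD, HFD_CR, LFD and those of Gas6 HFD_CR, HFD, LFD, and HFD_CR and HFD did not differ beyond the test in any of these genes.

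Genes of B and plasma cells, another cell type that visceral fat holds, were set beside Timd4. Of the 7 genes listed 6 were measured, and their mean signal was 8.68 to 9.53 in HFD_CR mice, 8.60 to 9.78 in HFD mice and 8.82 to 10.02 in LFD mice. Of these 6 genes 1, Mzb1, fell in HFD against LFD mice and none passed in the other comparisons. Within groups Timd4 had r = 0.608 and rho = 0.586 with this mean over 17 mice (adjusted permutation p = 0.226 and 0.301). Without the 2 mice farthest from the median of this mean, r was 0.459. With the mean of 7 monocyte genes Timd4 had r = 0.623 and rho = 0.591 (adjusted permutation p = 0.183 and 0.301), and r = 0.401 without the 2 mice farthest from the median of the monocyte mean. With the B and plasma cell mean as a covariate, an adjustment added after the data had been seen, Timd4 differed by -0.27 in HFD against LFD mice (adjusted p = 0.0748). The part of B and plasma cells or of monocytes in the Timd4 difference was not tested.

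Cd163 and Lyve1 varied widely between mice of the high-fat groups. Cd163 (probe set 17462843), the haemoglobin scavenger receptor, measured 8.95, 9.30, 9.64, 9.01 and 9.24 in HFD_CR mice. Signals ran from lowest over median to highest at 8.57, 8.90 and 9.53 in HFD mice and 9.03, 9.09 and 9.20 in LFD mice. The LFD range lay inside the ranges of both other groups, with an SD of 0.27 in HFD_CR, 0.34 in HFD and 0.06 in LFD mice. Differences were -0.16 ± 0.13 in HFD against LFD (adjusted p = 0.446), 0.28 ± 0.14 in HFD_CR against HFD (adjusted p = 0.186) and 0.13 ± 0.14 in HFD_CR against LFD mice (adjusted p = 0.657). HFD mouse 1 had the highest Cd163 of its group, and without it Cd163 was higher by 0.40 in HFD_CR than in HFD mice (adjusted p = 0.0213).

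Lyve1 (probe set 17495097), the hyaluronan receptor, measured 10.38, 10.60, 10.97, 10.32 and 10.55 in HFD_CR mice. Signals ran from lowest over median to highest at 10.06, 10.45 and 10.94 in HFD mice and 10.10, 10.32 and 10.42 in LFD mice, so all groups overlapped. Differences were 0.19 ± 0.13 in HFD against LFD (adjusted p = 0.324, 95% interval -0.08 to 0.46), 0.08 ± 0.14 in HFD_CR against HFD (adjusted p = 0.76, 95% interval -0.20 to 0.37) and 0.27 ± 0.14 in HFD_CR against LFD mice (adjusted p = 0.254, 95% interval -0.01 to 0.56). Genes of lymphatic endothelium, 6 of 7 measured, had mean signals of 7.44 to 7.51 in HFD_CR mice, 7.47 to 7.63 in HFD mice and 7.33 to 8.04 in LFD mice, and 1 of them, Pdpn, rose in HFD against LFD mice. Within groups Lyve1 had r = -0.0401 and rho = -0.0784 with their mean over 17 mice (adjusted permutation p = 0.979 and 0.925).

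**Figure D3:**
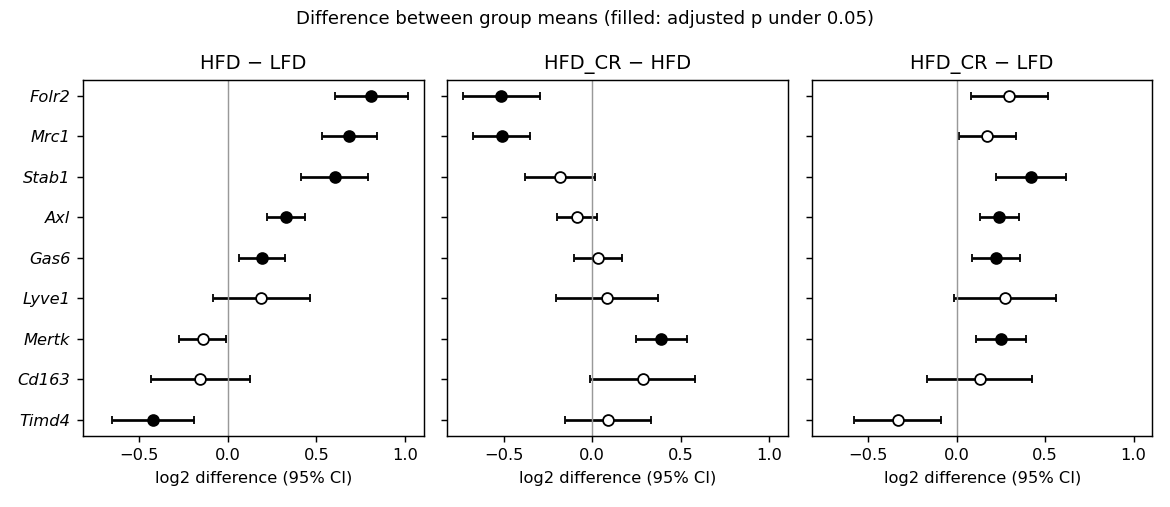
Differences between group means in log2 units, with 95% confidence intervals, for the 9 genes in the 3 comparisons. Filled points passed an adjusted p under 0.05 in limma, 6 of 9 in HFD against LFD, 3 of 9 in HFD_CR against HFD and 4 of 9 in HFD_CR against LFD mice.

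For each of the 9 genes, the 3 genes of 17227 candidates whose deviations from the group means were most like its own over the 17 arrays were listed. Such values are a description, since arrays share hybridisation and tissue content, and with so many candidates high values are found for any gene. For Mertk they were Ccdc174 (r = 0.845), Arid5b (0.839) and Pwwp2a (0.806), and for Axl Pla1a (r = 0.85), Gpc6 (0.774) and Ezh2 (0.77). Gas6 was nearest to Gabrb1 (r = 0.914), Ptprq (0.906) and Mmp23 (0.905). Timd4 was nearest to F10 (r = 0.892), Dipk1a (0.886) and Clec4e (0.877), Cd163 to Cdc45 (r = 0.914), Scgb1a1 (0.883) and Rpp40 (0.873), and Lyve1 to Nr1h4 (r = 0.859), Tmc6 (0.819) and Fcna (0.815). Mrc1 was nearest to Wdr36 (r = 0.909), Bend4 (0.89) and Racgap1 (0.886), Stab1 to Lrp1 (r = 0.857), Pdgfb (0.851) and Serpinb9b (0.838), and Folr2 to Rab3il1 (r = 0.86), Ap2m1 (0.859) and Clec4a1 (0.854). Spearman's rho of these 27 pairs lay between 0.762 and 0.919. Of these genes, Fcna stands in the list of resident vessel-associated macrophages, F10 in that of monocytes and Lrp1 in that of other receptors for dead cells.

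Genes that most macrophages use were higher in HFD mice than in both other groups. All 12 such pan-macrophage genes rose in HFD against LFD mice and all 12 fell in HFD_CR against HFD mice, with mean differences of 1.15 and -0.83, against means of 0.23 and -0.05 over the 9 genes. Among them Cd68, a lysosomal membrane protein, rose by 1.92 ± 0.15 in HFD against LFD mice (adjusted p = 3.75e-08), and Adgre1, a receptor that marks mouse macrophages, rose by 1.31 ± 0.14 (adjusted p = 1.04e-06). Of the 12, 5 rose and 7 did not pass in HFD_CR against LFD mice. The mean signal of the 12 was 10.41 to 10.85 in HFD_CR mice, 11.21 to 11.60 in HFD mice and 9.88 to 10.48 in LFD mice.

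Relative to the mean of those 12 genes on each array, all 9 genes were lower in HFD than in LFD mice, by -0.34 ± 0.12 for Folr2 (adjusted p = 0.0084) to -1.57 ± 0.13 for Timd4 (adjusted p = 2.12e-12). On this scale 98.3% of all genes were lower and 0.532% higher, so neither the count nor these p values say anything particular of the 9. The subtracted mean enters every p value given on this scale. The median over the 9 genes was -0.957, against -1.15 over all genes. Mertk at -1.29, Cd163 at -1.30 and Timd4 lay below the median of all genes, and the other 6 above it. This repeats the sign of their level differences, since 1 value per array was subtracted from every gene. In HFD_CR against HFD mice all 9 were higher relative to the macrophage mean, where 97.3% of all genes were higher and 0.419% lower. The median over the 9 genes was 0.863, against 0.827 over all genes, with Mertk highest at 1.22 ± 0.13 and Folr2 lowest at 0.32 ± 0.13. Without HFD_CR mouse 3, Mrc1 and Folr2 lost this last call (adjusted p = 0.0616 and 0.113), as they did without the 4 arrays with other tissue (0.088 and 0.084). In HFD_CR against LFD mice Timd4 alone of the 9 was lower, by -0.65 ± 0.14 (adjusted p = 0.00183), where 51% of all genes were lower and 0.807% higher, and the median over the 9 was -0.0762, against -0.318 over all genes.

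Other genes of resident vessel-associated macrophages moved in both directions, as did genes at large. Over all genes 16.5% rose and 11.3% fell in HFD against LFD mice, and 7.69% and 11.3% did in HFD_CR against HFD mice. In HFD_CR against LFD mice the shares were 5.8% and 3.28%. These shares stand beside the counts of every gene list given here. Of 26 measured, 8 rose and 3 fell in HFD against LFD mice, and the median difference was 0.11. The largest were Clec10a, a lectin (0.68 ± 0.14, adjusted p = 0.00082), Ltc4s, which makes leukotriene C4 (0.59 ± 0.08, adjusted p = 3.15e-05), and Cd209g, a lectin that fell (-0.56 ± 0.16, adjusted p = 0.0139). In HFD_CR against HFD mice 3 rose and 4 fell. Slc40a1, the iron exporter ferroportin, rose by 0.55 ± 0.14 (adjusted p = 0.0083), and Ltc4s fell by 0.44 ± 0.09 (adjusted p = 0.00158). Of the 26, 5 rose and 1 fell in HFD_CR against LFD mice, with Slc40a1 highest at 0.84 ± 0.14 (adjusted p = 0.000768). The mean signal of the 26 was 9.89 to 10.07 in HFD_CR mice, 9.87 to 10.11 in HFD mice and 9.71 to 9.95 in LFD mice.

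Most bridging molecules other than Gas6 changed in both comparisons with HFD mice. Of 14 measured, 11 rose and none fell in HFD against LFD mice, 10 fell and none rose in HFD_CR against HFD mice, and 6 rose in HFD_CR against LFD mice. Pros1, which encodes protein S, averaged 9.63 ± 0.06 in HFD_CR mice (SD, n = 5), 10.11 ± 0.14 in HFD mice (SD, n = 6) and 9.34 ± 0.15 in LFD mice (SD, n = 6). It rose by 0.78 ± 0.07 in HFD against LFD mice (adjusted p = 2.4e-07) and fell by 0.48 ± 0.08 in HFD_CR against HFD mice (adjusted p = 0.000185). Mfge8, which links phosphatidylserine to integrins, averaged 12.54 ± 0.17 in HFD_CR, 12.87 ± 0.07 in HFD and 12.04 ± 0.24 in LFD mice (SD). The C1q genes C1qb and C1qc rose by 1.07 ± 0.09 and 0.90 ± 0.09 in HFD against LFD mice (adjusted p = 1.04e-07 and 7.7e-07), and Lgals3, which encodes galectin-3, rose by 1.67 ± 0.11 (adjusted p = 8.32e-09).

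Of 19 other receptors for dead cells, 8 rose and none fell in HFD against LFD mice, and 7 fell and none rose in HFD_CR against HFD mice. Trem2, a lipid receptor of macrophages, averaged 10.08 ± 0.67 in HFD_CR, 11.56 ± 0.23 in HFD and 8.49 ± 0.17 in LFD mice (SD). It rose by 3.07 ± 0.21 in HFD against LFD mice (adjusted p = 1.05e-08), and was higher by 1.59 ± 0.22 in HFD_CR than in LFD mice (adjusted p = 0.000154), where 2 of the 19 rose. Tyro3, the remaining kinase of the MERTK and AXL family, averaged 6.76 ± 0.17 in HFD_CR, 6.78 ± 0.07 in HFD and 6.78 ± 0.27 in LFD mice (SD), below the median signal of every array, and differed by -0.02 ± 0.11 in HFD_CR against LFD mice (adjusted p = 0.937). Stab2, the relative of Stab1, rose by 0.43 ± 0.09 in HFD against LFD mice (adjusted p = 0.00124), with group means of 6.66 in HFD_CR, 6.93 in HFD and 6.50 in LFD mice. These means too lay below the lowest array median of 7.03, and signal over background is unknown. Of 9 relatives of Mrc1, Stab1, Cd163 and Folr2, 3 rose in HFD against LFD mice, the others being Cd44, a hyaluronan receptor (1.65 ± 0.12, adjusted p = 2.43e-08), and Mrc2, a collagen receptor. Mrc2 averaged 9.61 ± 0.32 in HFD_CR, 10.25 ± 0.07 in HFD and 8.24 ± 0.31 in LFD mice (SD), a rise of 2.01 ± 0.14 in HFD against LFD mice (adjusted p = 1.06e-08).

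**Figure D4:**
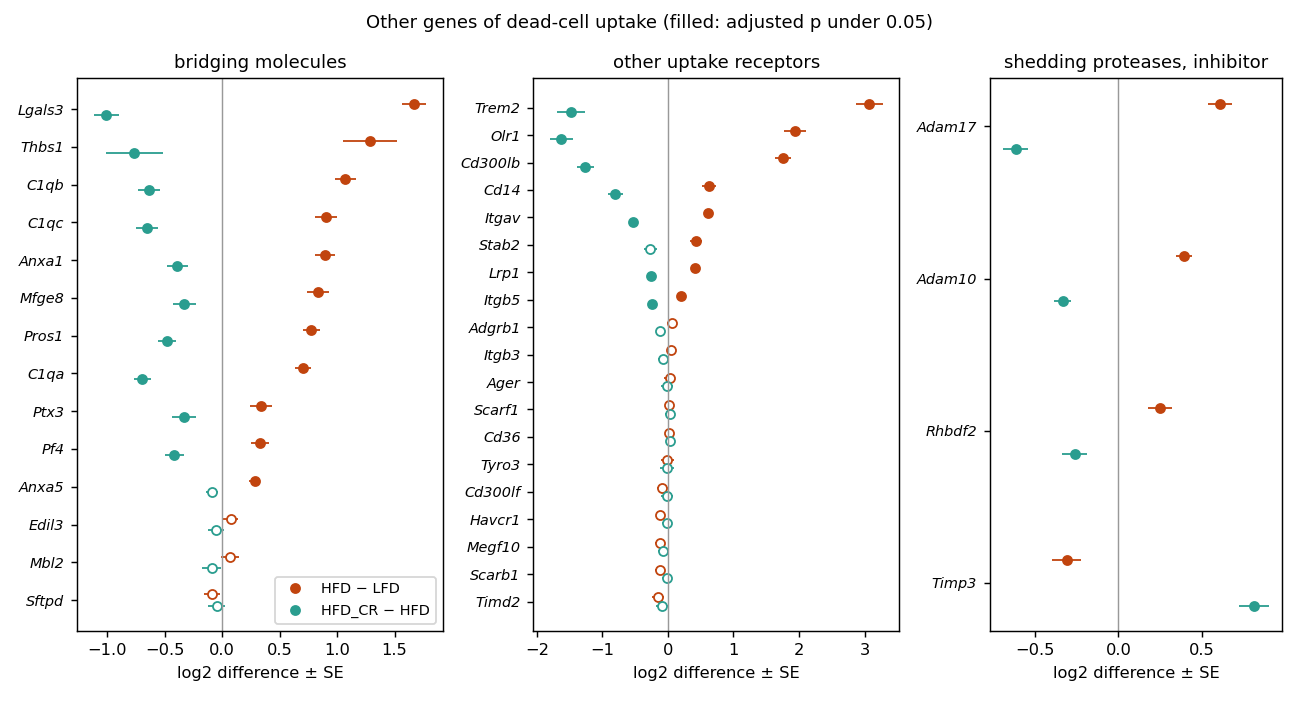
Differences in log2 units ± SE of bridging molecules (left), other receptors for dead cells (middle) and proteases that cut MERTK or AXL from the cell with their inhibitor (right), for HFD minus LFD and HFD_CR minus HFD. Filled points passed an adjusted p under 0.05, and those of the left and middle panels lie right of 0 for HFD minus LFD and left of 0 for HFD_CR minus HFD.

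Enzymes that release MERTK and AXL from the cell surface also moved. Adam17 and Adam10, which encode such proteases, and Rhbdf2, which encodes a partner of ADAM17, rose in HFD against LFD mice by 0.61 ± 0.07, 0.40 ± 0.05 and 0.25 ± 0.07 (adjusted p = 3.37e-06, 5.28e-06 and 0.0145). All of them fell in HFD_CR against HFD mice, by 0.62 ± 0.07, 0.33 ± 0.05 and 0.26 ± 0.08 (adjusted p = 2.08e-05, 0.000132 and 0.0189). Timp3, the inhibitor of ADAM17, averaged 11.86 ± 0.16 in HFD_CR, 11.05 ± 0.18 in HFD and 11.36 ± 0.13 in LFD mice (SD). It fell by 0.31 ± 0.09 in HFD against LFD mice (adjusted p = 0.0104) and rose by 0.81 ± 0.09 in HFD_CR against HFD mice (adjusted p = 1.1e-05). Protein on the cell surface was not measured.

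Genes of the steps after binding were counted too. Of 14 genes of the engulfment machinery, 9 rose and 1 fell in HFD against LFD mice, and 1 rose and 7 fell in HFD_CR against HFD mice. Dock2, which activates the GTPase Rac, rose by 0.74 ± 0.14 in HFD against LFD mice (adjusted p = 0.000521), and the adaptor gene Gulp1 rose by 0.71 ± 0.09 in HFD_CR against HFD mice (adjusted p = 2.03e-05). Of 11 genes of find-me and do-not-eat-me signals, 4 rose and none fell in HFD against LFD mice, and 1 rose and 5 fell in HFD_CR against HFD mice. P2ry6, a receptor for nucleotides of dying cells, rose by 1.5 ± 0.12 in HFD against LFD mice (adjusted p = 4.98e-08). Of 9 nuclear receptors of dead-cell uptake and their targets, 4 rose and 2 fell in HFD against LFD mice, among them Abcg1, a cholesterol exporter (1.21 ± 0.13, adjusted p = 8.59e-07), and Pparg (-0.36 ± 0.06, adjusted p = 0.000136). In HFD_CR against HFD mice 2 of these 9 rose and 3 fell. Pparg also stands in the adipocyte list, of which 8 genes were measured. Of those 8, 1 rose and 6 fell in HFD against LFD mice, and 6 rose and 0 fell in HFD_CR against HFD mice. The part of adipocytes in the Pparg difference was not tested. Of 8 genes of MERTK and AXL signalling and its brakes, 4 rose and 1 fell in HFD against LFD mice, and 1 rose and 4 fell in HFD_CR against HFD mice. Those that rose in HFD against LFD mice were Socs3, Ifnar1, Ifnar2 and Grb2, and Pik3r1 fell. Socs1, Twist1 and Twist2 did not pass there. Socs3, a brake on cytokine signalling, rose by 0.35 ± 0.09 in HFD against LFD mice (adjusted p = 0.00549) and fell by 0.40 ± 0.09 in HFD_CR against HFD mice (adjusted p = 0.00468).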

How the data were processed

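RNA of 17 periprostatic fat samples was measured, 1 array per mouse. The authors deposited log2 expression values per probe set. The tools named in the submitters' processing notes are R 3.5.0, RMA and limma, without role or order. RMA corrects background, normalises between arrays and summarises probes, and detection calls were not given in the sources used here. Of 33793 probe sets 23521 carried 1 gene symbol, 1814 several and 8458 none. The probe set with the highest mean was kept per gene, which left 22180 genes, and every column was used. No filter or rescaling was applied.

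Group means were fitted to all 17 arrays by lmFit and eBayes of limma 3.58.1, run in R 4.3.3 (14 residual and 3.625 prior degrees of freedom), with Benjamini-Hochberg adjustment over all genes and a threshold of 0.05. "Rose" and "fell" are used of what passed. Each sample is labelled as a mouse of its own. For values relative to pan-macrophage genes, the mean of 12 such genes was subtracted from every gene on each array before the fit. That fit estimated its own prior degrees of freedom, which are not given here. Relations across mice used 100000 permutations within groups in numpy 2.4.6 (two-sided), adjusted over 207 relations. Python 3.11.15 and matplotlib 3.10.9 drew the figures. The fit was tested on simulated data, with independent normal noise and, for each gene, the same spread in all groups. Unequal spread between groups and tissue content shared between arrays were not simulated.

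The 9 genes, the gene lists and the tests were chosen with earlier results of these data known. Named genes were the 9, of each list the passing genes with the largest difference, at most 4 (where none passed, the 2 lowest p values), a fixed set of relatives, and the 3 nearest genes of each of the 9. Some genes stand in more than 1 list. Alternatives covered each array left out, the mouse number as a block, probe set choice, normalisation, filters, eBayes settings, array weights, arrays with other tissue, covariates and a stricter threshold. The mouse number was not taken as a pairing: over 16 pairs of mice with the same number in 2 groups, the correlation of deviations across genes ran from -0.108 to 0.409, with 5 above 0.1 and 4 best with their own number.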

Additional observations from a re-analysis of the deposited data

Results flagged for a closer look

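In LFD mouse 5, Mertk measured 10.49 (10.4908), against 10.29 to 10.36 in the other LFD mice. Its gap to the next mouse was 0.632 of the range of the group, which is past the value that Dixon's test allows for 6 mice at 95%. This was 1 of 27 groups looked at (9 genes in 3 groups), and chance alone marks about 1 in 20. Without this mouse Mertk stayed called in HFD_CR against HFD and in HFD_CR against LFD mice.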

How the results depend on the processing

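Over 33 settings, 17 of which left out 1 mouse each, 823 of 864 values of the 9 genes kept their direction and their side of the threshold, and 16 of 27 results did so under every setting that gave a value. The calls of Mrc1, Folr2, Stab1 and Axl in HFD against LFD and of Mertk, Mrc1 and Folr2 in HFD_CR against HFD mice were among those 16, as was Axl in HFD_CR against LFD mice. The cause of the changes below was not tested.

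In HFD_CR against LFD mice 4 of the 9 genes were called, 2 to 5 without 1 mouse, 2 with arrays centred on their medians, 2 at an adjusted p under 0.01 and 1 with the B and plasma cell covariate, added after the data were seen, where Stab1 (adjusted p = 0.0662), Mertk (0.0797) and Gas6 (0.104) lost their calls. Of all 22180 genes 2015 were called in HFD_CR against LFD mice, and 1507 to 2355 without 1 mouse. With arrays centred on their medians 1721 were called, and 1371 with the B and plasma cell covariate. At an adjusted p under 0.01, 2575 genes were called in HFD_CR against HFD and 967 in HFD_CR against LFD mice. The Gas6 call in HFD against LFD mice was lost after quantile normalisation was applied again (adjusted p = 0.0691) and with the B and plasma cell covariate (0.0685).

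Mice of different groups share a number, and the labels do not say whether it marks a shared cage, litter or batch. With the mouse number as a replicate block, 6 of the 9 genes were called in HFD against LFD mice (6056 of all genes), 3 in HFD_CR against HFD mice (4010) and 4 in HFD_CR against LFD mice (1773). In HFD_CR against LFD mice Gas6 then missed the threshold (0.23, adjusted p = 0.0691) and Timd4 passed (-0.38, adjusted p = 0.0341). The pairs of same-numbered mice correlated best with each other in 4 of 16 cases. The highest correlation, 0.409, joined HFD and LFD mouse 3, both high in prostate and accessory gland genes. The next, 0.303, joined HFD_CR and LFD mouse 2, both high in skeletal muscle genes.

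Values that turned sign were all uncalled. With 1 mouse left out, the HFD_CR minus HFD difference ran from -0.0036 to 0.079 for Gas6, below 0 without HFD_CR mouse 1 or 3, and from -0.017 to 0.18 for Lyve1, below 0 without HFD_CR mouse 3 or HFD mouse 4. Gas6 was -0.10 with the mesothelial covariate, also added later. Relative to the pan-macrophage mean in HFD_CR against LFD mice, the range with 1 mouse left out was -0.15 to 0.047 for Mertk, -0.18 to 0.076 for Lyve1 and -0.13 to 0.027 for Folr2. There the replicate block gave 0.012 for Folr2, and the mean of 4 lineage genes in place of 12 gave 0.054 for Mertk, 0.047 for Axl, 0.029 for Gas6, 0.080 for Lyve1 and 0.10 for Folr2.

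Signal over background is unknown for these values, array signals compress low levels, and p values measure the spread between mice of 1 depot at 1 time.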

Other observations

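Lipid-associated macrophage genes stood highest in HFD mice: 9 of 11 measured rose in HFD against LFD, 9 fell in HFD_CR against HFD, and 7 rose in HFD_CR against LFD mice. Their mean signal was 10.46 to 11.59 in HFD_CR mice, 11.97 to 12.33 in HFD mice and 9.94 to 10.31 in LFD mice, so no 2 groups overlapped. Gpnmb, a glycoprotein of lysosomes, rose by 3.67 ± 0.28 in HFD against LFD mice (adjusted p = 3.7e-08) and was higher by 2.19 ± 0.29 in HFD_CR than in LFD mice (adjusted p = 0.000142). Of 7 monocyte genes 2 rose in HFD against LFD mice, among them Ccr2, the receptor that brings monocytes out of the blood (0.46 ± 0.13, adjusted p = 0.013), and 2 fell in HFD_CR against HFD mice, Ccr2 by 0.52 ± 0.14 (adjusted p = 0.0123). Kit, a growth factor receptor of mast cells, was higher in HFD_CR than in HFD mice by 0.86 ± 0.12 (adjusted p = 6.11e-05) and than in LFD mice by 0.89 ± 0.12 (adjusted p = 0.000128). Of 10 neutrophil and mast cell genes measured, 2 rose, 1 fell and 7 did not pass in HFD_CR against HFD mice. Kit alone of the 10 rose in HFD_CR against LFD mice, where 9 did not pass.

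Of 9 blood endothelial genes none rose and 2 fell in HFD against LFD mice, and 1 rose in HFD_CR against HFD mice. Col1a1, a fibrillar collagen gene of fibroblasts, rose by 0.91 ± 0.09 in HFD against LFD mice (adjusted p = 8.59e-07) and fell by 0.88 ± 0.10 in HFD_CR against HFD mice (adjusted p = 1.19e-05). Male germ cell genes were highest in HFD_CR mouse 1, where their mean lay 1.95 above the median array, and thermogenic adipocyte genes in LFD mice 3 and 6 (3.02 and 2.35 above it). Without HFD_CR mouse 1 the calls of Mertk, Mrc1 and Folr2 in HFD_CR against HFD mice were kept.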
